A study of Homo sapiens with 2 samples.

Results

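Chromosome 9 genes were compared between its short arm (9p) and its long arm (9q) on 2 Illumina bead arrays of the A4573 Ewing sarcoma line, an established cell line of a bone and soft tissue tumour. One array held RNA of radiation-adapted A4573 cells, labelled 4 Gy, and the other RNA of wild-type A4573 cells that carry no such label. Both groups were the same line, each was 1 culture with 1 array, and the labels give no radiation schedule and no interval before RNA extraction. A gene entered when a probe with a single platform symbol on chromosome 9 had a detection p of at most 0.01 in at least 1 array, and the probe with the highest mean intensity stood for it. This rule found 447 genes, 108 on 9p and 339 on 9q, among 11288 detected genes on all chromosomes. Members were therefore chosen on their measured signal, and with earlier results of these arrays known, so the arm values are descriptions with no test. With 1 array per group, no difference has a replicate check.

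A human chromosome is divided by its centromere into a short and a long arm, and genes that lie next to each other share their copy number and often part of their chromatin environment. When a segment is gained or lost in a tumour cell, the RNA of many genes along it commonly shifts in one direction, each by a different amount. On chromosome 9, 9p carries the CDKN2A tumour suppressor locus, which is deleted in some Ewing sarcomas, and 9q carries growth regulators such as NOTCH1, ABL1 and TSC1. DNA copy number was not measured here.

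The difference between the arms lay within 9q. From SLC31A1, a copper transporter gene, to the end of 9q, the median gene read -0.38 (log2 radiation-adapted minus log2 wild-type, the scale of every difference given here), while the medians of 9p (0.03) and of the part of 9q nearer the centromere (0.00) were close to the median of all detected genes (0.01). The lowest values along this end of 9q included the fibrillar collagen COL5A1 (-1.90) and the endoplasmic reticulum chaperone HSPA5 (-1.87). On 9p and in the first part of 9q, readings went both ways. High ones included the basement membrane protein FREM1 (1.34), the chromatin-binding PSIP1 (1.04) and the condensin subunit SMC2 (1.21). Low ones included the neuronal membrane protein LINGO2 on 9p (-2.10) and the receptor S1PR3 in the first part of 9q. S1PR3 was at least 6.70-fold lower on background-corrected values. Without background correction LINGO2 read -0.98 and S1PR3 -1.40. A rise of 1.5-fold or more, bounds counted, was read for 12% of 9p and 10% of this part of 9q. A fall of that size was read for 10.2% and 11.4%, so neither part leaned clearly to higher values. SLC31A1 was taken as the division after the values along the arm had been seen. The values of its sides (140 proximal and 199 distal genes) therefore describe this choice and support nothing. SLC31A1 is the first gene of a window of 20 successive genes and itself read 0.23, so the place of the division follows the window grid.

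Promoters of 4 genes named below are shown, 2 for a known motif and 2 for a start region shared with a neighbour; no value of the arms rests on them. Each runs from 250 bases before to 50 bases after the gene's start, from RefSeq on GRCh38.p14, 5′ to 3′ in the direction of the gene. HSPA5 (chr9:125241294-125241593, minus strand) had one of the lowest values of 9q, and the capitals mark an ER stress element, CCAAT and CCACG with any 9 bases between them. SMC2 (chr9:104094059-104094358, plus strand) stood on the other side of the division, and the capitals mark a CHR element (TTTGAA), a motif known from genes of mitosis, read on the opposite strand. LRRC8A (chr9:128881883-128882182, plus strand) and LRSAM1 (chr9:127451260-127451559, plus strand) start head to head with a neighbour on the opposite strand, KYAT1 and RPL12, and the capitals mark the bases between and including the 2 starts.
HSPA5: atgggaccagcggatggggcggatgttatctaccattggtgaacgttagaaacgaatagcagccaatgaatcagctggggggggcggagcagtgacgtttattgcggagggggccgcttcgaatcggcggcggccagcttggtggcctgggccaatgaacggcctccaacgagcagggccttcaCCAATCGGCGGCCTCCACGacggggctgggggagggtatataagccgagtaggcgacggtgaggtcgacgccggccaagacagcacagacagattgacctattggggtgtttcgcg
SMC2: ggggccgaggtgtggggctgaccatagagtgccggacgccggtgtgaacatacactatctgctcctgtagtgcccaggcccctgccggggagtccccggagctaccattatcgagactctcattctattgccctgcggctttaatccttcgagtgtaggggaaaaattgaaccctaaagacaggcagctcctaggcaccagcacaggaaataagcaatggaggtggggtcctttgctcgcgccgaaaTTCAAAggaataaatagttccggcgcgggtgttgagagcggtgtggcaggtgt
LRRC8A: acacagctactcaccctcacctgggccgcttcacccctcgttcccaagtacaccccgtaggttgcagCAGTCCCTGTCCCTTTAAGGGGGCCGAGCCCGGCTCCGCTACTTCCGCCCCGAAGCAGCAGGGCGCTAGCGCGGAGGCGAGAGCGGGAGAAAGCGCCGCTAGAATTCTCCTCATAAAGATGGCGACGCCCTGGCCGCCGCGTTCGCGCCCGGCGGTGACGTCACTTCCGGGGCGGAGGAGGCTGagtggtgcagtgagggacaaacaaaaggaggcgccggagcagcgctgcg
LRSAM1: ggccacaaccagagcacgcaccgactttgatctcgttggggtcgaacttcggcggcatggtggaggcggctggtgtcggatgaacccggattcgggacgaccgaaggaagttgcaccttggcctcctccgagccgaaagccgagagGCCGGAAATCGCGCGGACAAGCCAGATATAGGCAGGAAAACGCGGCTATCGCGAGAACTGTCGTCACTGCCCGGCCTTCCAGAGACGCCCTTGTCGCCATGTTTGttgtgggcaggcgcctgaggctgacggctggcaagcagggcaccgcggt

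Promoters were found for 380 of the 447 members, and 4 motifs chosen after the values were seen were searched on both strands. The ER stress element was in 1 promoter of a distal member, HSPA5, and in 0 of members of 9p or proximal 9q, against 22 of all 27305 promoters of the table (0.0806%). CHR elements were in 10.5% of the promoters of 9p members, 8.70% of proximal 9q and 7.65% of distal 9q, against 15.4% of all. CCAAT alone, with which the ER stress element overlaps, was in 36.8% of 9p, 34.8% of proximal 9q and 34.1% of distal 9q promoters, against 35.7% of all. The GC box GGGCGG, a short word that recurs in CpG-rich promoters, was in 74.7% of 9p, 74.8% of proximal 9q and 73.5% of distal 9q promoters, against 44.6% of all, which include genes not detected on these arrays. Of the promoters shown, HSPA5 and LRRC8A held 2 GC boxes each and SMC2 and LRSAM1 held 0. A match is a string of letters and not a measured binding site.

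Over the whole arms, the median difference was 0.03 on 9p and -0.26 on 9q, or 0.29 higher on 9p. The quartiles were -0.25 and 0.34 on 9p and -0.64 and 0.10 on 9q. At least 1.5-fold lower, with genes detected in 1 array counted at their bound, were 11 of 108 genes on 9p (10.2%) and 82 of 339 on 9q (24.2%), against 12.2% of all 11288 detected genes. At least 1.5-fold higher were 13 on 9p (12%) and 15 on 9q (4.42%), against 11.9% of all. On proximal 9q the counts were 16 lower (11.4%) and 14 higher of 140, and on distal 9q 66 lower (33.2%) and 1 higher (0.503%), the Golgi protein gene GOLGA1 (0.62, 0.24 without background correction). Of the 199 distal genes, 162 (81.4%) were below 0. Median scaling in place of quantile normalisation moved the median of all genes to 0.17, and the 9p split became 18.5% higher and 6.48% lower. Relative to the median of all genes, the distal median was then -0.36, against -0.39 in the main values.

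**Figure D1:**
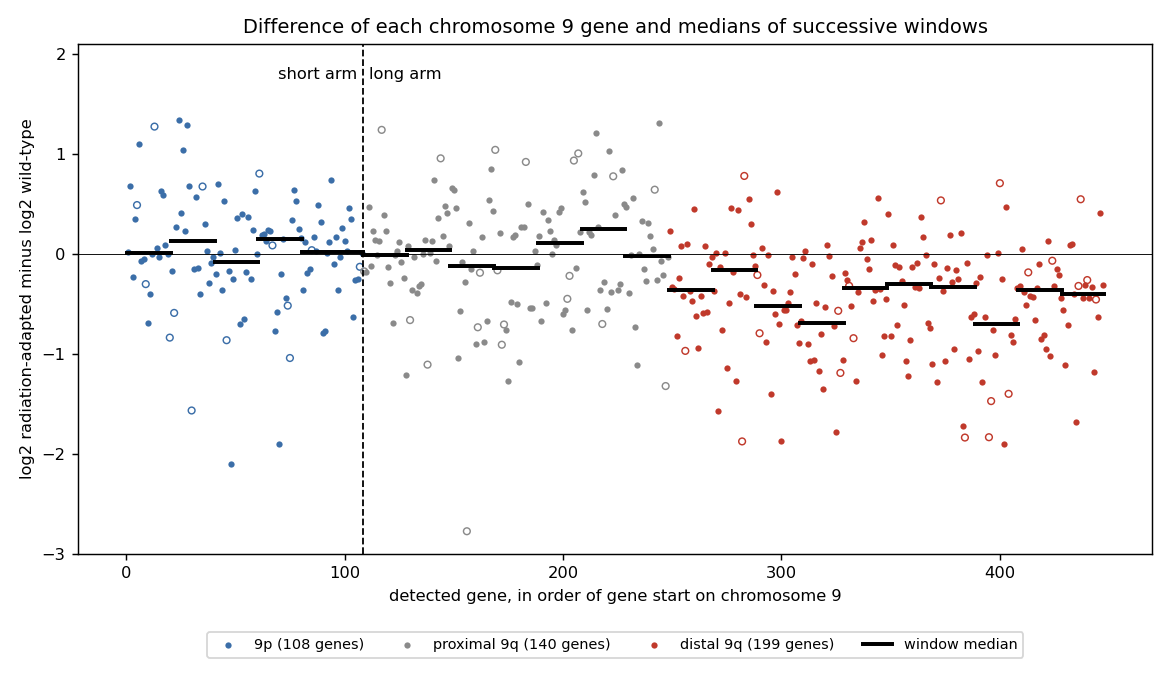
Difference of each of the 447 detected chromosome 9 genes (y axis, log2 radiation-adapted minus log2 wild-type) in order of gene start (x axis); open circles are genes detected in 1 array only, and black lines are medians of successive windows, mostly of 20 genes. Window medians stay between -0.14 and 0.24 up to FKBP15, and between -0.70 and -0.16 from SLC31A1 on.

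Detection itself differed between the arms. Of chromosome 9 genes with a probe, 108 of 224 on 9p (48.2%) and 339 of 588 on 9q (57.7%) were detected. On all chromosomes together, 11288 of 20016 genes with a probe were detected. Among the 447, 391 were detected in both arrays, 16 in the radiation-adapted array alone and 40 in the wild-type array alone, and the last 2 groups entered through 1 array only. Over all 11288 detected genes, 9821 were detected in both arrays, 464 in the radiation-adapted array alone and 1003 in the wild-type array alone. Just inside the detection limit were SLC1A1, LINC03062 and SPMIP6 (lower detection p of the 2 arrays 0.00909), and just outside were BRD10 and LINC03106 (0.0104) and OR1L8 (0.0117). Over the genes detected in both arrays alone, the distal median stood 0.41 below that of all such genes, and 9p stood 0.01 below it.

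Successive windows of 20 genes showed where along the chromosome the values differed. The 5 windows of 9p had medians of -0.08 to 0.15, and the first 7 windows of 9q, from FAM74A4 to FKBP15, had medians of -0.14 to 0.24. All 10 windows from SLC31A1 to ZMYND19 had medians below 0, from -0.70 to -0.16. The lowest was the window from SNORD36C to UBAC1 (-0.70, 11 of 20 genes at least 1.5-fold lower), followed by that from SLC2A8 to GOLGA2 (-0.70, 10 of 20). The highest ran from TEX10 to PTPN3 on proximal 9q (0.24, 6 genes at least 1.5-fold higher, 0 lower). Leaving out each distal window in turn gave a distal median of -0.40 to -0.37, which the choice of 10 low windows largely fixes. On the other chromosomes, 537 windows had medians of -0.83 to 0.64 with quartiles of -0.10 and 0.13, and 100 of them (18.6%) were at or below -0.16, the highest of the 10 distal medians. A stretch of low windows was therefore not particular to chromosome 9: with a limit of -0.15, set after the distal medians were known, 11q held a run of 16 windows, 9q of 10 and 11p of 7.

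**Figure D2:**
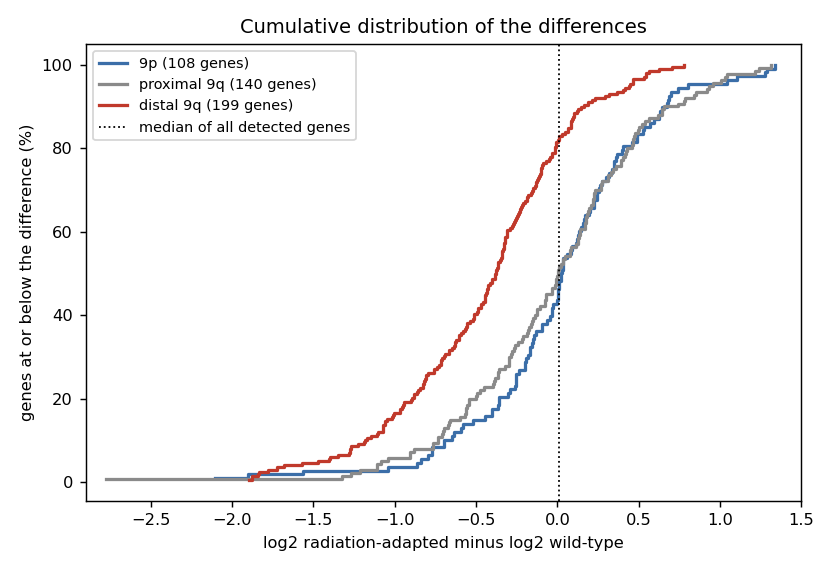
Share of genes at or below each difference (y axis, percent; x axis, log2 radiation-adapted minus log2 wild-type) for 9p, proximal 9q and distal 9q. The curves of 9p and proximal 9q cross the median of all detected genes (dotted line, 0.01) near the middle, and the distal 9q curve lies left of them, with 81.4% of its genes below 0.

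Among 41 chromosome arms with at least 30 detected genes, 9q had the lowest median but 2, after 11q (-0.33) and 11p (-0.28), and 9p ranked 19 from the lowest. The highest arm was 5p (0.36). Of 18 chromosomes with both arms measured, chromosome 9 had the second largest difference in size between its arms (0.29), after chromosome 4 (-0.32), and close to chromosome 5 (0.29) and chromosome 2 (0.27).

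**Figure D3:**
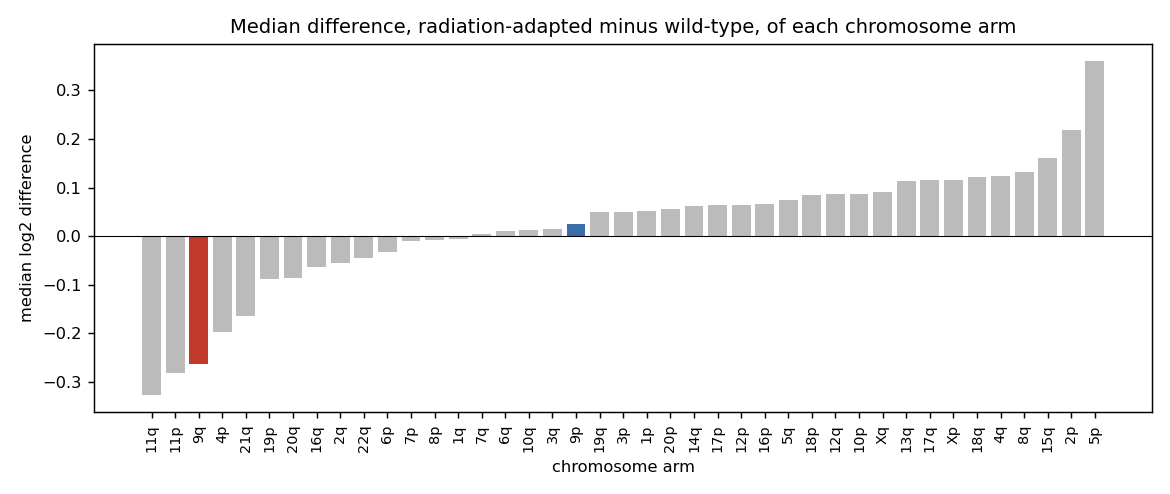
Median difference (y axis, log2 radiation-adapted minus log2 wild-type) of each of 41 chromosome arms, sorted, with 9p in blue and 9q in red. 9q (-0.26) follows 11q and 11p from the low end and 9p (0.03) is near the middle.

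On 9p, FREM1, an extracellular matrix protein of basement membranes, had an intensity of 482.8 in the radiation-adapted array and 242.7 in the wild-type array (1.34, 0.87 without background correction). BNC2, a zinc finger transcription factor, read 286.8 in radiation-adapted and 179.7 in wild-type cells (1.29, 0.63 without background correction). VLDLR, a lipoprotein receptor, read 246.8 in radiation-adapted and 172.1 in wild-type cells (1.10, 0.48 without background correction). These were the 3 highest values of the arm among genes detected in both arrays. PSIP1, also known as LEDGF, which binds chromatin and takes part in homology-directed repair, read 1361.1 in radiation-adapted and 622.6 in wild-type cells (1.04). MELK, a kinase expressed in dividing cells, read 0.74, and FANCG, a subunit of the Fanconi anaemia core complex with 625.5 in radiation-adapted and 395.1 in wild-type cells, read 0.64. Both were under 1.5-fold without background correction (0.53 for MELK and 0.49 for FANCG). In the other direction, the neuronal membrane protein LINGO2 read 159.8 in radiation-adapted and 302.2 in wild-type cells (-2.10, -0.98 without background correction). CNTFR, the alpha receptor of ciliary neurotrophic factor, read 163.5 in radiation-adapted and 289.9 in wild-type cells (-1.90, -0.88 without background correction). DNAJA1, a heat shock co-chaperone, read 2225.5 in radiation-adapted and 2864.5 in wild-type cells (-0.65, -0.37 with median scaling). SH3GL2, an endophilin of synaptic vesicle uptake, was detected in wild-type cells only and was at least 2.09-fold lower in radiation-adapted cells (measured difference -0.53 without background correction). Thus both of the lowest values of 9p, LINGO2 and CNTFR, came from dim probes close to the detection limit in radiation-adapted cells. JAK2, the kinase of cytokine receptors, was detected in radiation-adapted cells only, at least 1.43-fold higher (measured difference 0.41 without background correction).

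The CDKN2A locus showed little difference. CDKN2A, which encodes p16 and p14ARF, read 700.5 in radiation-adapted and 689.9 in wild-type cells (-0.20, 0.03 with median scaling). Its neighbour MTAP, the methylthioadenosine phosphorylase, read 590.6 in radiation-adapted and 531.7 in wild-type cells (-0.03, 0.20 with median scaling). Intensities here are as deposited and the differences are taken after normalisation, which is why the sign need not follow the intensities for small differences. CDKN2B was not detected (detection p 0.290 in radiation-adapted and 0.0481 in wild-type cells), and neither was CD274, the PD-L1 ligand (0.809 in radiation-adapted and 0.875 in wild-type cells).

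On proximal 9q, SMC2, the core condensin subunit, read 383.5 in radiation-adapted and 219.0 in wild-type cells (1.21, 0.72 without background correction). RNF20, a ligase that ubiquitinates histone H2B, read 1077.1 in radiation-adapted and 586.6 in wild-type cells (0.79). GAS1, a membrane protein of Hedgehog signalling, read 1772.6 in radiation-adapted and 1000.2 in wild-type cells (0.64). ZNF462, a zinc finger protein (1.03, 0.64 without background correction), and SNX30, a sorting nexin (1.31, 0.67), were higher as well. Lower readings stood beside these. S1PR3, a receptor of sphingosine 1-phosphate, was detected in wild-type cells only, with an intensity of 392.1 against 157.2 in the radiation-adapted array, and was at least 6.70-fold lower there (measured difference -1.40 without background correction). NINJ1, which acts in plasma membrane rupture, read 463.1 in radiation-adapted and 823.4 in wild-type cells (-1.27), and the homeobox factor BARX1 read 375.1 in radiation-adapted and 599.0 in wild-type cells (-1.09).

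On distal 9q, COL5A1, a chain of type V collagen, read 592.4 in radiation-adapted and 1611.5 in wild-type cells, or -1.90. HSPA5, also known as BiP, the main chaperone of the endoplasmic reticulum, read 269.5 in radiation-adapted and 620.8 in wild-type cells, or -1.87. BBLN, a small coiled-coil protein, read 188.9 in radiation-adapted and 354.1 in wild-type cells (-1.78, -0.98 without background correction). All 3 were lower in radiation-adapted cells, and without background correction COL5A1 read -1.67 and HSPA5 -1.33. DPP7, a lysosomal peptidase, read 342.8 in radiation-adapted and 750.0 in wild-type cells (-1.68), or -1.22 as the mean of its 4 probes, which were of one sign. SURF4, a cargo receptor of the endoplasmic reticulum, read 861.6 in radiation-adapted and 1631.1 in wild-type cells (-1.28). CDK9, the kinase that releases paused RNA polymerase II, read 413.5 in radiation-adapted and 653.2 in wild-type cells (-1.06), and BRD3, a bromodomain protein, read 477.0 in radiation-adapted and 734.7 in wild-type cells (-1.01). Both act in transcription, and both were at least 1.5-fold lower in radiation-adapted cells. NOTCH1 read 274.9 in radiation-adapted and 373.8 in wild-type cells (-0.85, -0.55 without background correction), and ABL1, a tyrosine kinase, read 614.9 in radiation-adapted and 800.1 in wild-type cells (-0.69, -0.45 with median scaling). TSC1, the hamartin subunit of the mTORC1 brake, read 512.1 in radiation-adapted and 495.5 in wild-type cells (-0.16, 0.07 with median scaling), and its probes differed in sign. RALGDS, a Ras effector, had -1.73 from its brightest probe but -0.63 as the mean of its probes, which differed in sign. The prostaglandin synthase PTGS1 was at least 3.07-fold lower and the glycosyltransferase GBGT1 at least 2.74-fold lower, both detected in wild-type cells only. Their measured differences without background correction were -0.74 for PTGS1 and -0.69 for GBGT1. OLFM1, a secreted neuronal glycoprotein, read higher, with 4549.8 in radiation-adapted and 2768.5 in wild-type cells (0.47), but its probes differed in sign.

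**Figure D4:**
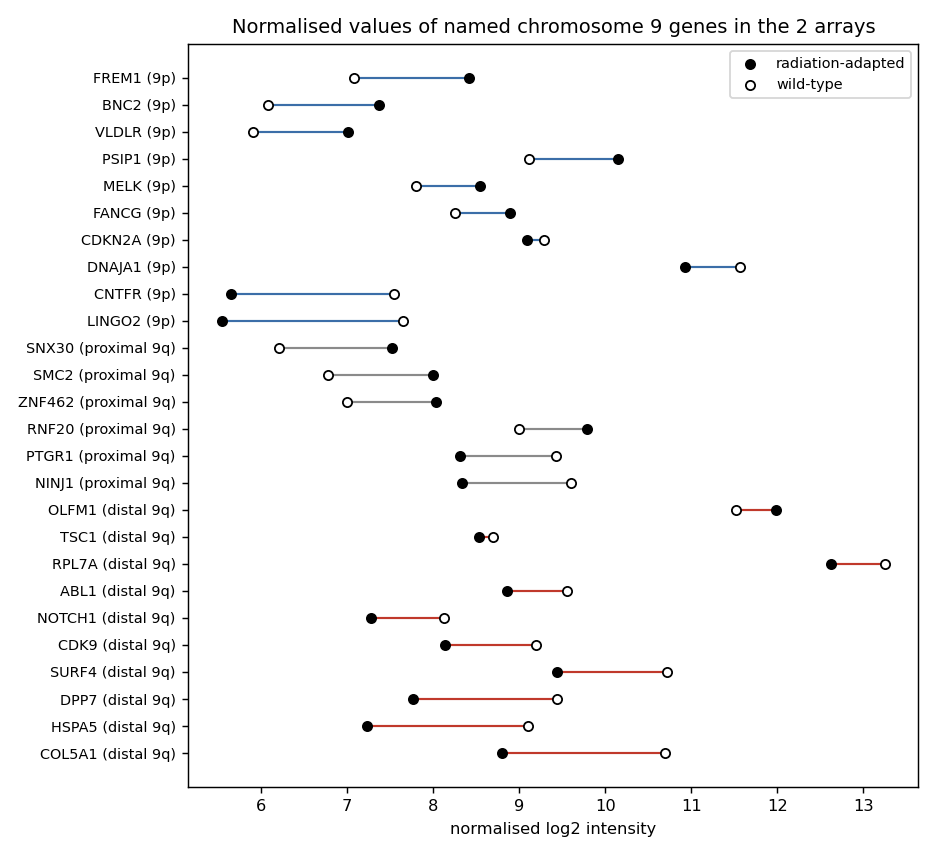
Normalised log2 intensity (x axis) of 26 named genes in the radiation-adapted array (filled) and the wild-type array (open), with lines coloured by 9p (blue), proximal 9q (grey) and distal 9q (red). The filled point is left of the open one in 9 of the 10 distal genes, all but OLFM1. The genes shown were picked in part for their values, so this count describes the choice. Of all 199 distal genes, 81.4% were below 0.

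The surfeit cluster, a tight group of housekeeping genes in the distal end, gave a spread of values; it was picked after its values were seen. SURF4 (-1.28), the mediator subunit MED22 (-1.05), the cytochrome oxidase assembly factor SURF1 (-0.97) and the ribosomal protein RPL7A (-0.63) were at least 1.5-fold lower, RPL7A not with median scaling (-0.47) or in the authors' processed values (-0.56). SURF2 (-0.23) and the nucleolar protein SURF6 (-0.09) were nearer 0. The small nucleolar RNA SNORD36A, which lies in an intron of RPL7A, read -0.60.

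Neighbours that start head to head, picked in the same way, were compared as 14 pairs with both genes detected. Of 8 distal pairs, 5 had both genes below 0. Of all distal genes taken singly, 81.4% were below 0, so the count of pairs says nothing about shared start regions. KYAT1, a transaminase, and LRRC8A, a subunit of the volume-regulated anion channel, whose starts are 183 bases apart, read -1.01 and -0.82 (-0.72 and -0.41 without background correction). RPL12, a ribosomal protein, and LRSAM1, a ubiquitin ligase, 104 bases apart, read -0.04 and -0.90. The first pair thus had like values and the second did not. DOLK, the dolichol kinase, read -0.45 and its partner NUP188, a nuclear pore protein, 0.40. On 9p the 1 pair read 0.40 for APTX, aprataxin, which repairs blocked DNA ends, and -0.65 for DNAJA1. FKBP15 (-0.03) and SLC31A1 (0.23), 267 bases apart, form the pair at the division.

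By function, members of lists written for chromosome 9 were counted with bounds at 1.5-fold, beside the shares of all detected genes of the same arm, 24.2% lower and 4.42% higher on 9q and 10.2% lower and 12% higher on 9p. Within 9q, 33.2% of distal and 11.4% of proximal genes were lower. How many of the detected 9q members of each list are distal was not counted, so the 9q counts are not set against these shares. Function and position within 9q therefore cannot be told apart in the 9q counts. Each list's count without background correction, added after the values were seen and made on measured differences, stands beside its count with bounds. Without background correction the arm shares, with bounds, were 13.6% lower and 1.47% higher on 9q and 3.70% lower and 2.78% higher on 9p. In matrix, adhesion and cytoskeleton, 6 of 14 detected 9q genes were lower (4 without background correction) and 0 higher (median -0.62), all 6 of them distal, among them COL5A1, OLFML2A (-1.40), the actin-severing GSN (-1.14), the matrix glycoprotein TNC (-0.94) and the laminin chain LAMC3 (-0.74). Without background correction OLFML2A read -0.76, GSN -0.60 and LAMC3 -0.27. On 9p the same list had 1 lower, the metalloprotease inhibitor RECK (-0.77, -0.27 without background correction), and 1 higher, FREM1, of 6. In lipid handling, 7 of 12 on 9q were lower (also 7 without background correction) and 0 higher (median -0.71), among them the sialyltransferase ST6GALNAC4 (-1.35), the transporter ABCA2 (-1.11) and the acyltransferase AGPAT2 (-0.95). CERCAM (-1.27), which the list also holds, is an adhesion-related protein and no lipid enzyme. Without background correction ST6GALNAC4 read -0.89, ABCA2 -0.63 and CERCAM -0.62. In growth factor and developmental signalling, 7 of 17 on 9q were lower (4 without background correction) and 1, GAS1, higher (median -0.38). On 9p, 2 of 3 genes of the signalling list were lower, CNTFR and SH3GL2 (1 without background correction, CNTFR). SH3GL2, the endophilin of synaptic vesicle uptake, is no growth factor or growth factor receptor. Of the lipid list on 9p, 1 of 3 was higher, VLDLR (0 without background correction). Metabolic enzymes had 6 of 15 lower (4 without background correction) and 1 higher (0) on 9q (median -0.32), and 0 of 10 lower or higher on 9p (median 0.03).

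DNA repair and damage response genes of 9p were 3 of 7 higher and 0 lower (median 0.40), PSIP1, FANCG and the ubiquitin ligase UHRF2 (0.59, 0.25 without background correction), and without background correction 1 of 7 was higher, PSIP1. On 9q the list had 1 of 11 higher, FANCC, at least 1.54-fold and detected in radiation-adapted cells only (measured difference 0.28 without background correction), and 1 lower, GADD45G (-0.90, -0.53 without background correction), a stress-response gene. Cell division genes were 2 of 2 higher on 9p, MELK and the centrosomal CNTLN (0.68, 0.22 without background correction), and 0 of 2 without background correction. On 9q 0 of 15 were higher and 2 lower (median -0.08), CDK9 and NINJ1, whose known roles are in transcription and membrane rupture.

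Ribosome and RNA processing genes had 1 of 9 higher on 9p (0 without background correction) and 3 of 23 lower on 9q (2 without background correction), with medians of 0.00 and -0.04. Transcription factors and chromatin genes had 2 of 7 higher on 9p, BNC2 and FOXD4 (median 0.27), or 1 without background correction, and the FOXD4 probe is uncertain because the gene has near-identical copies. On 9q they had 4 of 15 lower (also 4 without background correction) and 2 higher (1), with a median of -0.33. Chaperones had 2 of 7 lower on 9p, DNAJA1 and DNAJB5 (at least 1.96-fold, measured difference -0.37 without background correction), and 2 of 14 lower on 9q, HSPA5 and the torsin TOR1B (-0.86, -0.53 without background correction). Without background correction these counts were 1 on 9p, DNAJA1, and 1 on 9q, HSPA5. Of the list of interferon and antiviral genes, 2 of 15 members with a probe on 9p were detected, 0 of them lower or higher. The interferon genes IFNA1 and IFNB1 of 9p were not detected. On 9q 3 of 5 were lower (median -0.63), the transcription factor NFIL3 (-0.88), the complement component C5 (-0.76) and the cytokine TNFSF15 (-0.63). These 3 are not interferon genes or antiviral sensors. Without background correction 0 of 5 were lower, with -0.52 for NFIL3, -0.35 for C5 and -0.38 for TNFSF15. The list of the CDKN2A locus had 0 of 3 lower or higher.

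By probe, brightness and base composition, the distal genes read as follows. For 34 distal genes, 2 or more probes were detected on each array: 24 had all probes lower and 3 all higher, and 7 were mixed, while over all 2324 such genes 738 (31.8%) had all probes lower. With all detected genes split by brightness into 4 bins of 2822, dimmest to brightest, the distal median was -0.24, -0.46, -0.42 and -0.33, and that of all genes -0.07, 0.04, 0.02 and 0.02. Promoters of distal genes were richer in G and C, with a median of 69.0%, against 64.0% on 9p, 65.7% on proximal 9q and 65.3% over all detected genes. Among genes with at least 70% GC the median difference was -0.49 on distal 9q (79 genes), -0.15 on proximal 9q (39), 0.12 on 9p (31) and -0.06 outside chromosome 9 (2757). In the 60 to 70% range it was -0.35 on distal 9q, -0.01 on proximal 9q, 0.11 on 9p and 0.06 outside chromosome 9. From 50 to 60% it was -0.22 on distal 9q (21 genes), 0.10 on proximal 9q (18), -0.00 on 9p (25) and 0.08 outside. Below 50% it was -0.07 on distal 9q (7 genes), 0.12 on proximal 9q (9), 0.04 on 9p (5) and 0.03 outside. The distal value was thus nearer 0 in each stratum of lower GC. The proximal 9q value also rose in each stratum of lower GC, so this order was not particular to distal 9q. The part of base composition in the distal values was not tested beyond these strata.

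On the whole series, 16712 probes (35.3%) were detected in the radiation-adapted array and 17903 (37.8%) in the wild-type array, and the number of arrays limits the precision. Markers of cell types were read as a description: 5 of 5 Ewing sarcoma markers were detected in both arrays, and 0 of 3 endothelial and 1 of 4 epithelial markers, EPCAM. The Ewing sarcoma markers went in both directions. LIPI (1.82), FLI1 (0.81) and STEAP1 (0.35) were higher and CD99 (-0.55) and NKX2-2 (-0.09) lower in radiation-adapted cells. Of 5 leukocyte markers 3 were detected, with LCP1 at 230.3 in radiation-adapted and 697.8 in wild-type cells and PTPRC undetected in both, and all 4 fibroblast markers were detected, with summed intensities of 2546 in radiation-adapted and 2522 in wild-type cells. The 4 fibroblast markers went in both directions, with DCN (1.97) and LUM (0.78) higher and PDGFRB (-1.16) and THY1 (-1.17) lower in radiation-adapted cells. Their part in the chromosome 9 values was not tested.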

How the data were processed

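Total RNA of 2 cultures was labelled with biotin and hybridised to 1 Illumina array each, per the labels' protocols. Per the file headers, the authors deposited for each probe an average signal, an intensity before normalisation, and a detection p-value. The sources used here do not say how their processed values, also intensities and used as an alternative, were made. Probes were placed by gene ID on RefSeq GRCh38.p14: 30113 had 1 symbol, 8 several, and 30068 were placed, naming 20016 genes. Arms were divided by gene start at a round centromere position per chromosome, taken from general knowledge and not from a table, so genes next to a centromere could be placed on the wrong arm. Values were made with neqc of limma 3.58.1 (R 4.3.3), in which the detection p sets the background, 16 is added, and quantile normalisation precedes log2. Quantile normalisation removes differences in total RNA. A gene detected in 1 array has a bound against the dimmest detected signal of the other. Bounds are on background-corrected values, and a measured difference without that correction can be smaller. No test was run. The steps were tested on simulated data.

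Named genes were, on each arm, the 10 highest and 10 lowest values among genes detected in both arrays with probes of one sign. To these were added, on each arm, the 4 largest bounds each way and up to 6 genes of the extreme windows. Over the whole chromosome, up to 4 of each of 11 lists and the genes beside the centromere were taken. CDKN2A, CDKN2B, MTAP, JAK2, CD274, NOTCH1, TSC1, ABL1, HSPA5 and PTCH1 were fixed whatever their values. PTCH1, like CDKN2B and CD274, was not detected (detection p 0.522 in radiation-adapted and 0.501 in wild-type cells). Others in the text were picked after their values were seen. Members, lists and rules were chosen with earlier results of these data known. The division of 9q, motifs, GC strata, promoters, pairs, list counts without background correction and the protein-coding alternative came after the values were seen. Figures and counts were made with matplotlib 3.10.9, pandas 2.3.3 and numpy 2.4.6 in Python 3.11.15.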

Additional observations from a re-analysis of the deposited data

How the results depend on the processing

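Differences between the 2 arrays have no replicate check, so these values show only how the choice of processing moves them. Without background correction the medians were -0.14 for 9q and -0.28 for distal 9q, and 9p exceeded 9q by 0.15; shares at least 1.5-fold lower were 3.70% (9p), 13.6% (9q) and 19.1% (distal 9q), and higher 2.78% (9p) and 1.47% (9q). Median scaling gave medians of 0.17 (9p), -0.11 (9q), 0.18 (proximal) and -0.20 (distal), with 6.48% lower and 18.5% higher on 9p and 8.85% higher on 9q, while the median of all genes was 0.17. With no detection filter the medians were -0.077 (9q) and -0.15 (distal), 9p exceeded 9q by 0.10, 6.25% of 9p and 22% of distal genes were lower and 7.59% of 9p genes higher. The share of 9q genes higher was 8.26% in the authors' processed values, 2.06% with an offset of 50 and 1.85% among brighter genes, and that of 9p with an offset of 50 was 7.41%. In each setting run, the distal median lay below that of all genes, by 0.15 to 0.44. Of 81 named genes at least 1.5-fold apart, 54 were over 1.5 times closer to 0 without background correction, 40 remained at least 1.5-fold apart and 0 changed sign, though quantile normalisation of the same ranks fixes signs in advance. No paired analysis was possible because each group holds 1 array. Dim probes have little signal over background, and their differences depend most on its correction.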
